A study of Mus musculus with 32 samples.

Results

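The collagen chain genes were followed in MCG 101 sarcomas and in the stroma around them. Members were all genes whose mouse symbol has the form Col, a type number, the letter a and a chain number, after the RefSeq identifiers on the array had been matched to symbols. This gave 44 collagen chain genes among 45616 gene names, of which 22911 were symbols. The 44 chains were covered by 67 probes, 22 of the chains had more than 1 probe, and each chain was read from its brightest probe. They comprised 11 fibrillar chains, 6 basement membrane (type IV) chains, 6 type VI chains, 9 fibril-associated chains, 2 multiplexins, 3 short-chain network chains, 4 transmembrane chains and 3 anchoring or other chains.

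MCG 101 is a transplantable mouse sarcoma line that was first induced with methylcholanthrene. Its cells had been implanted in mice that were wild type (EP2+/+) or knockout (EP2-/-) for EP2, a receptor for prostaglandin E2 (gene Ptger2), and tumor and tumor stroma were profiled on 32 one-colour arrays. Each tissue was taken from hosts of both genotypes, which gave 4 groups of 8 arrays, each with 4 arrays labelled female and 4 labelled male. All 4 groups carried the same implanted line, whose own EP2 genotype, like the age of the hosts and the construct of the knockout, is not given in the labels. The labels place the knockout in the hosts, and a tumor piece holds sarcoma cells and host cells. The labels do not say that each array came from a separate mouse, so the p-values measure the spread between arrays. All tissue samples are bulk RNA, in which fewer cells of a type and less RNA per cell cannot be told apart.

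Collagens are built from 3 chains wound into a triple helix. Fibrillar collagens, chiefly types I and III with small amounts of type V, form the tension-bearing fibrils of connective tissue and are made mainly by fibroblasts. Type IV forms the sheet-like network of basement membranes under endothelium and around muscle fibres, fat cells and Schwann cells. Type VI forms beaded filaments around cells, and the fibril-associated chains decorate the surface of fibrils. Sarcoma cells are of mesenchymal origin and can make collagen themselves.

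Levels are log2 signals relative to the 75th percentile of the same array, so 0 is the 75th percentile. That percentile ran from 584 to 1727 signal units, 47.7% to 74.6% of probes per array exceeded background clearly by the scanner's own flag (called above background here), and saturation was not seen on any spot. A principal component analysis put 58.6% of the variance on its leading axis, where 14 stroma arrays separated from tumor and 2 did not: wild-type stroma 65 and 82 fell among the tumors. The 1 probe for Ptger2 was not lower in arrays labelled knockout: its median level was -4.83 in wild-type and -3.76 in knockout stroma, and -5.31 in wild-type and -4.33 in knockout tumor, above background on 6, 8, 3 and 7 of 8 arrays. Whether this probe lies in the deleted part is not given in the labels, so it does not check them, and every genotype direction here is that of the labels. By Ddx3y and Xist, 5 arrays went against their sex label, namely wild-type stroma 9, knockout stroma 95 and 99 and knockout tumor 95 and 99. Wild-type stroma 9 also held the lowest mean level of the 11 fibrillar chains (-2.05, against 0.81 for the group's median array) and of the 6 type VI chains (-3.04, against -0.80). Counts over all chains are given with and without these 5 arrays for both genotypes together, between the stroma groups and for genotype by tissue. Some single chains are also given without wild-type stroma 9. Most single tissue differences, the gene and marker lists, and the knockout-host and tumor-group results are given mainly with all arrays.

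Of the 44 chains, 38 could be tested between the tissues, because 8 or more arrays measured them above background. Of these 38 chains, 18 were higher in stroma, 12 were higher in tumor and 8 did not pass (limma, Benjamini-Hochberg adjusted p under 0.05). Over all 27096 genes tested, 26% passed as higher in stroma and 36.8% as higher in tumor. The median log2 difference, stroma minus tumor, was 0.24 over the 38 chains and -0.13 over all genes. The filter asked for 8 arrays of either tissue, so chains such as Col6a5 and Col19a1 entered mainly through stroma, where they were high. The counts and the median that include them are therefore not independent of the filter. Of the 44 chains, 16 were above background on all 32 arrays. Every class with at least 2 tested chains contained chains that moved in opposite directions, apart from the anchoring and other chains, of which 2 were higher in stroma and none in tumor. Without wild-type stroma 65 and 82 the counts were 18 higher and 14 lower of 38 (28.1% and 37.1% of all genes). Without the 5 arrays that went against their sex label they were 16 and 12 of 37 (23.3% and 33.4%), and without wild-type stroma 9 alone 17 and 12 of 37 (25.7% and 37%).

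**Figure D1:**
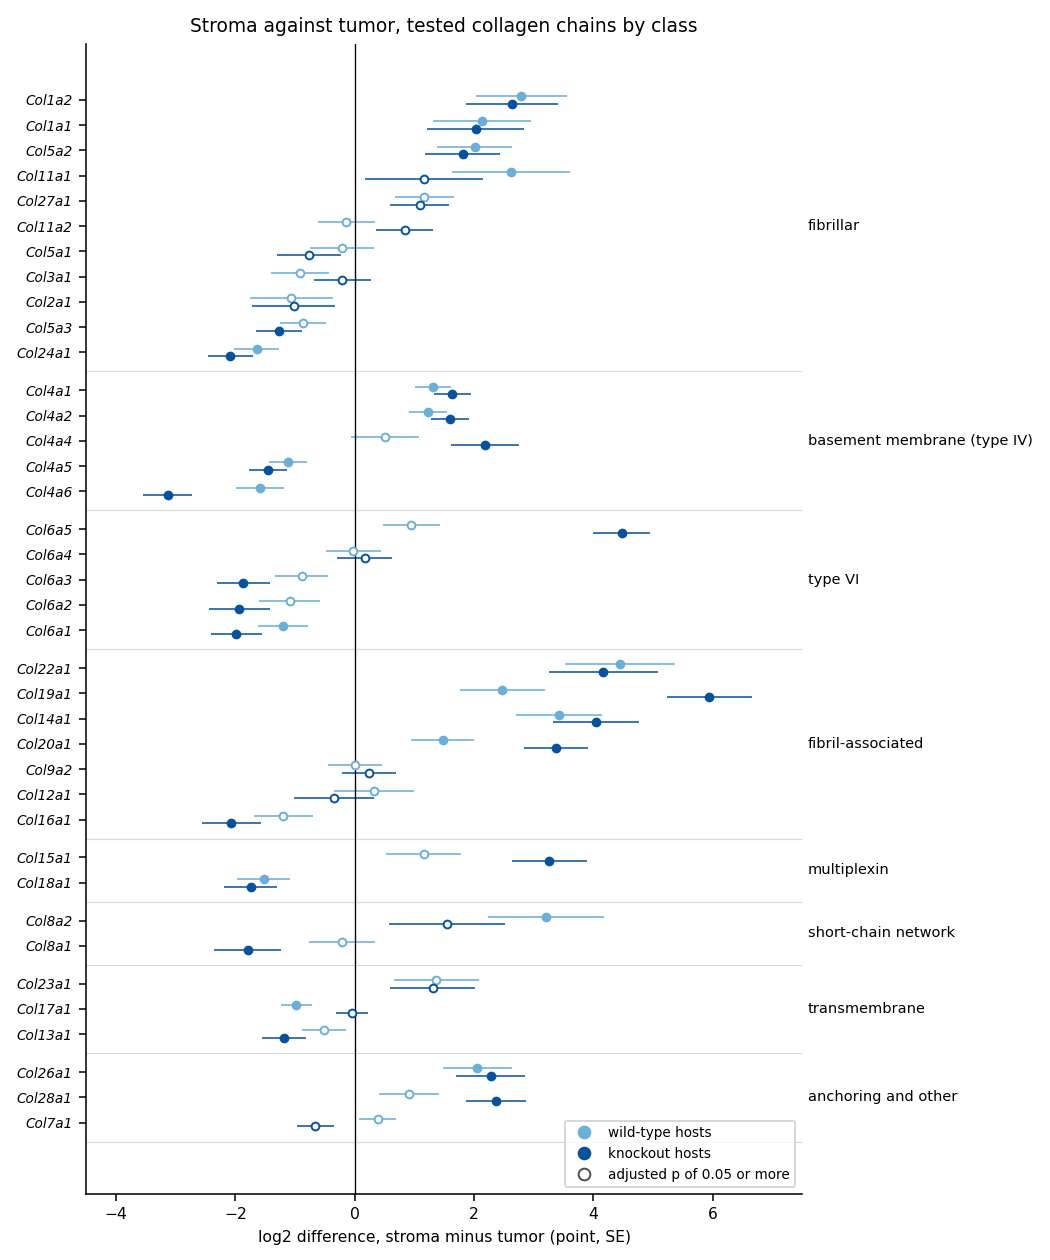
Log2 difference between stroma and tumor (x axis, point and SE) for the 38 tested collagen chains, grouped by class, with wild-type hosts in light and knockout hosts in dark blue and open points for an adjusted p of 0.05 or more. Within types IV and VI, the fibril-associated chains and the multiplexins some chains lie to the right of 0, higher in stroma, and others to the left, higher in tumor.

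Among the fibrillar chains both chains of type I, the main collagen of skin, tendon and fascia, were higher in stroma. Col1a1 ran from 0.51 to 7.42 (median 4.79) in wild-type stroma, from 4.03 to 6.44 (median 5.11) in knockout stroma, from -0.38 to 6.15 (median 1.62) in wild-type tumor and from 1.19 to 5.20 (median 2.63) in knockout tumor. Of the 16 stroma arrays, 15 lay above the tumor median, yet the ranges overlapped because single tumors reached stroma levels. The log2 difference for Col1a1 was 2.08 ± 0.58 (SE, 16 against 16 arrays), a 4.23-fold higher level in stroma (limma, Benjamini-Hochberg adjusted p = 0.0027). Col1a2, the partner chain, differed by 2.72 ± 0.54 or 6.57-fold (adjusted p = 9.7e-05), and all 16 stroma arrays lay above its tumor median. Both type I chains were higher in stroma on 6 of 6 array slides, by 0.39 to 3.49 for Col1a1 and by 1.21 to 4.20 for Col1a2.

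Type III, made of 3 copies of the Col3a1 chain and laid down in the same fibrils as type I, did not follow type I. Col3a1 ran from 1.66 to 7.40 (median 6.43) in wild-type stroma, from 5.64 to 7.01 (median 6.41) in knockout stroma, from 6.18 to 7.33 (median 6.66) in wild-type tumor and from 6.14 to 6.94 (median 6.59) in knockout tumor. All 4 ranges overlapped, and only wild-type stroma 9, at 1.66, was far below the rest. The difference was -0.56 ± 0.34 (adjusted p = 0.15). Without wild-type stroma 9 it was -0.24 ± 0.15 (adjusted p = 0.17). Without wild-type stroma 65 and 82 it was -0.82 and passed as higher in tumor (adjusted p = 0.038), as it did with weighted arrays (-0.30, adjusted p = 0.034).

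Type V, which nucleates fibrils and sets their width, was divided by chain. Col5a2 was higher in stroma by 1.91 ± 0.44 (adjusted p = 5.3e-04), with medians of -1.50 over the 16 stroma and -3.63 over the 16 tumor arrays. Col5a1 did not pass, at -0.49 ± 0.38 (adjusted p = 0.27). Col5a3 was higher in tumor by 2.09-fold (-1.07 ± 0.27, adjusted p = 0.0013), and 10 of 16 stroma arrays lay below the lowest tumor array. In knockout hosts all 8 stroma arrays lay below the lowest knockout tumor array.

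The minor fibrillar chains were also split. Col11a1, a type XI chain known from cartilage and activated fibroblasts, was higher in stroma by 1.89 ± 0.70 (adjusted p = 0.021), a call that was lost under another background correction (1.16, adjusted p = 0.054) and with the mean of its probes (1.30, adjusted p = 0.080). Col27a1 was higher in stroma by 1.13 ± 0.35 (adjusted p = 0.0069). Col24a1 was higher in tumor by 3.64-fold (-1.86 ± 0.27, adjusted p = 1.4e-06), with a median of -3.84 over the stroma and -1.84 over the tumor arrays, and on all 6 slides. Col2a1, the cartilage chain, was at -1.04 ± 0.49 (adjusted p = 0.066) and Col11a2 at 0.35 ± 0.34 (adjusted p = 0.37), neither of which passed.

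**Figure D2:**
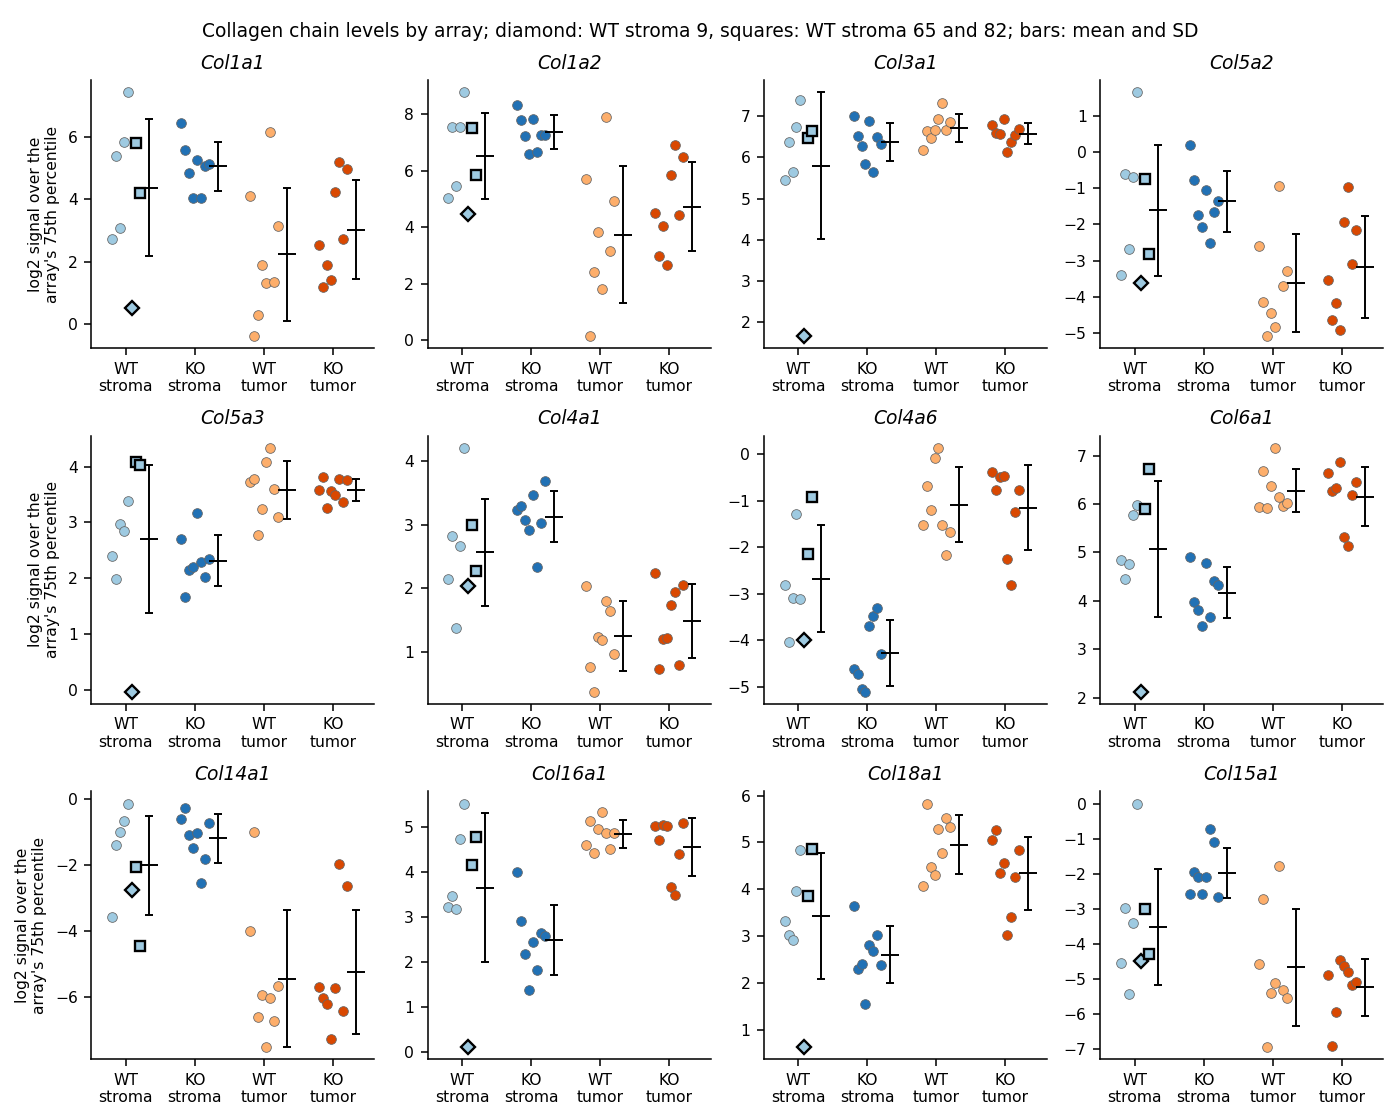
Levels of 12 collagen chains on each array (y axis, log2 signal over the array's 75th percentile) in the 4 groups of 8, with mean and SD bars beside the points; the diamond is wild-type stroma 9 and the squares are wild-type stroma 65 and 82. Col1a1 and Col1a2 are spread over a wide range in tumor while Col3a1 is held in a narrow band from 6.14 to 7.33.

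The upstream sequences of Col1a2 and Col3a1 are shown because these 2 fibrillar genes, whose products share fibrils, differed in how their levels varied between arrays. They are the 250 bases before the RefSeq start on GRCm38.p6, at chr6:4505368-4505617 (plus strand) for Col1a2 and chr1:45311288-45311537 (plus strand) for Col3a1, with matches on either strand to the CCAAT box, to the GC box written as GGGCGG, or to the TATA box written as TATAAA, in capitals. None of the 3 motifs overlaps another in these windows. The promoter table held no entry for Col1a1.
Col1a2: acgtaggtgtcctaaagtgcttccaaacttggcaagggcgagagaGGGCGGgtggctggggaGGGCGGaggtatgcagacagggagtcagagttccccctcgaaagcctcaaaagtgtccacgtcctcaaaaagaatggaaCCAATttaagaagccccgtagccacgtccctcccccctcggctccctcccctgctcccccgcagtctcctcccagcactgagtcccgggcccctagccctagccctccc
Col3a1: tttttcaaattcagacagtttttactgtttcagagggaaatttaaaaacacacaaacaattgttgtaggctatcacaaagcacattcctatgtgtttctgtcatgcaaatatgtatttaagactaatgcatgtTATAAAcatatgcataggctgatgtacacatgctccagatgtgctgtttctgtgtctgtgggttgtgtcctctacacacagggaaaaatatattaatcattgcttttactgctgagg
In these windows Col1a2 held 2 GC boxes and 1 CCAAT box, starting 205, 188 and 109 bases before the start, and Col3a1 held 1 TATA box, 117 bases before it. Of 32851 windows of this length over all genes, 33.8% held a CCAAT box, 32.7% a GC box and 12.4% a TATA box. Of 38 windows for 35 collagen chains, 13 held a CCAAT box, 22 a GC box and 5 a TATA box. A match is a match of letters only.

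Within tumors the type I chains varied far more than type III. The SD over the 16 tumor arrays was 1.86 for Col1a1 and 2.04 for Col1a2, against 0.29 for Col3a1 and 0.38 for Col5a1. In linear signal the highest tumor exceeded the lowest by 91.9-fold for Col1a1, by 218-fold for Col1a2 and by 2.28-fold for Col3a1. The lowest type I levels were those of wild-type tumor 5, the array with the most probes above background (74.6%) and the most outlier spots (483). Without it the ranges were 57.1-fold, 69.6-fold and 2.28-fold and the SDs of Col1a1, Col1a2 and Col3a1 1.74, 1.79 and 0.30, a check added after the values had been seen. The 2 type I chains moved together across tumors (Pearson r = 0.97, Spearman rho = 0.97, n = 16, permutation p = 1e-05 for both, the smallest that 100000 resamples can give, adjusted p = 1.7e-05 over 14 correlations). Without the 2 arrays farthest from the Col1a1 median r was 0.96, and within wild-type and knockout tumors it was 0.97 and 0.98 (8 arrays each). Col1a1 and Col3a1 showed no such relation in tumor (r = 0.02, rho = -0.04, n = 16, permutation p = 0.95 and 0.89, adjusted p = 0.95 and 0.96). Their r was -0.36 without the 2 farthest arrays, 0.41 within wild-type and -0.55 within knockout tumors, and -0.49 and 0.43 within the 2 scan days, so the sign was not the same across batches.

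In the 14 stroma arrays other than wild-type stroma 65 and 82 the same pair was tightly related (r = 0.92, rho = 0.94, permutation p = 1e-05 for both, adjusted p = 1.7e-05). Without the 2 farthest arrays r was 0.95, within genotypes it was 0.91 and 0.92, and with all 16 stroma arrays it was 0.90. The difference between the tumor and stroma correlations was not tested.

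**Figure D3:**
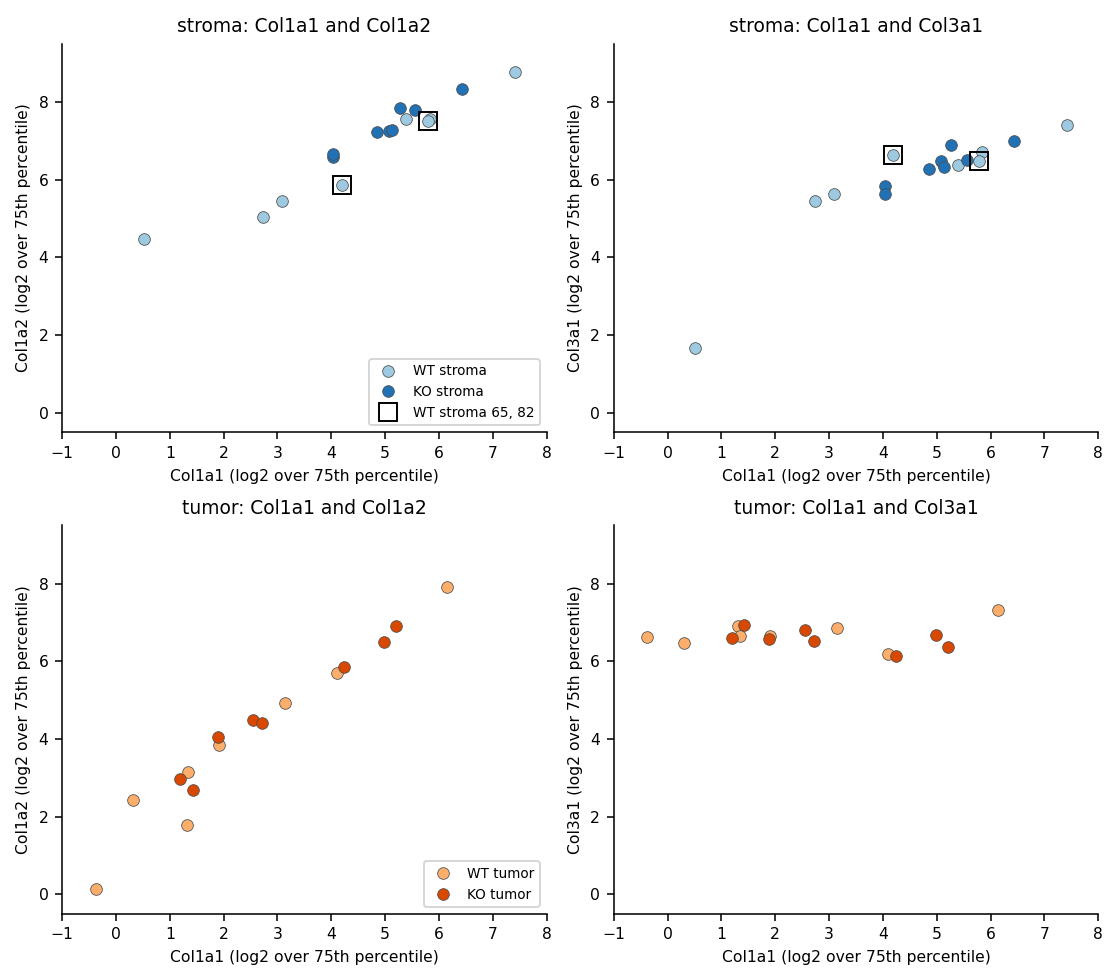
Col1a2 and Col3a1 against Col1a1 on each array (log2 over the 75th percentile on both axes) in stroma above and in tumor below, coloured by host genotype. In tumor the Col1a1 and Col1a2 points fall along 1 line (r = 0.97) while Col3a1 stays between 6.14 and 7.33 at every level of Col1a1, and in stroma Col3a1 follows Col1a1.

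Other chains that assemble into 1 molecule also moved together, with an exception in tumor for types V and VIII. In stroma this was not particular to such partners, since Col1a1 and Col3a1, which form separate molecules, gave r = 0.92. Pairs of chains that share neither a molecule nor a fibril were not correlated for comparison. Col4a1 and Col4a2 gave r = 0.96 (rho = 0.98) in tumor and 0.98 (rho = 0.96) in stroma. Col6a1 and Col6a2 gave 0.91 (rho = 0.92, permutation p = 2e-05 for rho) and 0.99 (rho = 0.98). Col6a1 and Col6a3 gave 0.80 in tumor (rho = 0.86, permutation p = 2.3e-04 and 1e-04, adjusted p = 3.2e-04 and 1.4e-04) and 0.97 in stroma (rho = 0.94). The permutation p not stated for these 3 pairs was 1e-05, the smallest that could be given. Within genotypes and scan days their r ran from 0.63, for Col6a1 and Col6a3 in tumors of 1 scan day, to 0.99. Without the 2 farthest arrays it was 0.64 for that pair in tumor and at least 0.90 otherwise. Col5a1 and Col5a2 were related in stroma (r = 0.87, rho = 0.93, permutation p = 1.4e-04 for r, adjusted p = 2.2e-04) but not detectably in tumor (r = 0.39, rho = 0.28, n = 16, permutation p = 0.14 and 0.29, adjusted p = 0.16 and 0.34). Col8a1 and Col8a2 gave r = 0.78 in stroma (rho = 0.71, permutation p = 9.4e-04 and 0.0053, adjusted p = 0.0012 and 0.0067) and -0.05 in tumor (rho = 0.0029, permutation p = 0.85 and 0.995, adjusted p = 0.91 and 0.995). Within scan days the stroma values of this last pair were 0.82 and 0.48.

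The level of Col1a1 in tumor was set beside the mean level of each of 10 marker lists, a comparison chosen after the spread of Col1a1 had been seen. Pearson's r was positive and passed for 7 of the 10 lists and Spearman's rho for 4. With the 9 fibroblast markers r was 0.81 (rho = 0.79, n = 16, permutation p = 1.6e-04 and 4.2e-04, adjusted p = 0.0016 and 0.0042 over 10 lists), 0.66 without the 2 farthest arrays. The r was 0.75 with macrophage markers (rho = 0.72, permutation p = 5.1e-04 and 0.0023, adjusted p = 0.0025 and 0.012) and 0.70 with smooth muscle and pericyte markers (rho = 0.65, permutation p = 0.0027 and 0.0078, adjusted p = 0.0087 and 0.026). It was 0.69 with adipocyte markers (rho = 0.50, permutation p = 0.0035 and 0.052, adjusted p = 0.0087 and 0.069) and 0.64 with endothelial markers (rho = 0.61, permutation p = 0.0089 and 0.014, adjusted p = 0.018 and 0.034). It was 0.59 with skeletal muscle markers (rho = 0.56, permutation p = 0.017 and 0.025, adjusted p = 0.029 and 0.050) and 0.54 with Schwann cell markers (rho = 0.53, permutation p = 0.027 and 0.038, adjusted p = 0.038 and 0.063). Without the 2 farthest arrays the values for fibroblast (0.66), macrophage (0.63), smooth muscle (0.63) and skeletal muscle markers (0.59) were close to each other. With the 6 proliferation markers it was -0.17 (rho = 0.059, permutation p = 0.53 and 0.83, adjusted p = 0.53 and 0.83), and it turned to 0.32 without the 2 farthest arrays. The part of host cells in these tumor levels was not tested.

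Type IV was divided by gene pair. Its genes lie in head-to-head pairs, and the chains of a pair are used together in a molecule, Col4a1 and Col4a2 in most basement membranes and Col4a5 and Col4a6 in those of smooth muscle and skin, among others. Col4a1 ran from 1.37 to 4.20 (median 2.47) in wild-type stroma and from 2.33 to 3.68 (median 3.15) in knockout stroma, against 0.38 to 2.04 (median 1.21) and 0.73 to 2.24 (median 1.48) in wild-type and knockout tumor. Of the 16 stroma arrays 13 lay above the highest tumor array, and in knockout hosts all 8 did. Col4a1 was 2.78-fold higher in stroma (1.47 ± 0.22, adjusted p = 2.3e-06) and Col4a2 was 2.67-fold higher (1.41 ± 0.23, adjusted p = 7.1e-06), each on 6 of 6 slides.

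The pair on the X chromosome went the other way. Col4a6 ran from -4.03 to -0.91 (median -2.95) in wild-type stroma and from -5.10 to -3.30 (median -4.46) in knockout stroma. In tumor it ran from -2.16 to 0.14 (median -1.36) in wild-type and from -2.81 to -0.38 (median -0.77) in knockout hosts. In 13 of 16 stroma arrays it lay below the lowest tumor array. Col4a6 was 5.14-fold higher in tumor (-2.36 ± 0.29, adjusted p = 1.8e-07) and Col4a5 was 2.44-fold higher in tumor (-1.29 ± 0.22, adjusted p = 1.7e-05), each on 6 of 6 slides.

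The upstream windows of Col4a5 and Col4a6 are shown because these 2 genes differed between the tissues in the same direction and start back to back, 1342 bases apart. On GRCm38.p6 they are chrX:141475169-141475418 (plus strand) and chrX:141474077-141474326 (minus strand), each read towards its own gene, with the same matches in capitals.
Col4a5: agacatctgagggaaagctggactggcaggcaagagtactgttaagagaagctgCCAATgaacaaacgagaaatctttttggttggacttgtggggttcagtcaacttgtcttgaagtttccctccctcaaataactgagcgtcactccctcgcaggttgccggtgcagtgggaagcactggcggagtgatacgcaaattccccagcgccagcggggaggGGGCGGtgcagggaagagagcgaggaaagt
Col4a6: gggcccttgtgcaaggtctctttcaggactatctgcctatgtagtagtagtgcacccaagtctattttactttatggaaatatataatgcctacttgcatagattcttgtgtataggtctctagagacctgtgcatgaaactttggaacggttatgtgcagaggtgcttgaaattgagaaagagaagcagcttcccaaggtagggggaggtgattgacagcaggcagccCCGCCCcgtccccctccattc
Col4a5 held 1 CCAAT box and 1 GC box, and Col4a6 held 1 GC box on the opposite strand, so that its complement is printed. The GC box began 30 bases before the start of Col4a5 and 21 bases before that of Col4a6.

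The third pair was near the detection limit. Col4a4 was well above background on 7 of 16 stroma arrays and 1 of 16 tumor arrays, and its difference was 1.34 ± 0.40 (adjusted p = 0.0051). In knockout tumor no array was above background, and the knockout stroma mean was 1.06-fold the detection level there. This value sets the mean of the brighter group against the lowest signal that counted as well above background on each dim array. Signals that did not count can exceed that lowest signal, so such a value is a guide and not a strict bound. Col4a3 was above background on 2 of 32 arrays and was not tested.

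Type VI was higher in tumor in its 3 common chains over both genotypes, while in wild-type hosts alone only Col6a1 of the 3 passed (-1.20 ± 0.42, adjusted p = 0.033), and not without wild-type stroma 9 (-0.69, adjusted p = 0.055). Col6a1 ran from 2.12 to 6.72 (median 5.32) in wild-type stroma, from 3.47 to 4.91 (median 4.15) in knockout stroma, from 5.92 to 7.16 (median 6.09) in wild-type tumor and from 5.14 to 6.88 (median 6.30) in knockout tumor. In knockout hosts every stroma array lay below every tumor array, while in wild-type hosts the ranges overlapped. Col6a1 was 3.02-fold higher in tumor (-1.59 ± 0.30, adjusted p = 4.9e-05), Col6a2 2.85-fold (-1.51 ± 0.36, adjusted p = 7.3e-04) and Col6a3 2.60-fold (-1.38 ± 0.31, adjusted p = 4.2e-04), and each was higher in tumor on 6 of 6 slides. A second probe for Col6a3, above background on all 32 arrays, differed by only -0.53. In wild-type hosts Col6a2 was at -1.09 ± 0.51 (adjusted p = 0.10) and Col6a3 at -0.89 ± 0.44 (adjusted p = 0.12), the latter at -0.36 without wild-type stroma 9. In knockout hosts both passed, at -1.93 and -1.86.

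Of the type VI chains that can replace the third chain, Col6a5 went the opposite way. It ran from -6.72 to -2.51 (median -5.16) in wild-type stroma and from -4.71 to -1.57 (median -2.43) in knockout stroma, and was above background on 3 and 8 of 8 arrays there. In wild-type tumor it was above background on 2 and in knockout tumor on 0 of 8 arrays. Its difference was 2.72 ± 0.34 (adjusted p = 2.3e-07), and in knockout hosts the stroma mean was 6.73-fold the detection level in tumor. A second probe for Col6a5, above background on 3 of 32 arrays, differed by 0.92. Col6a4 did not pass (0.07 ± 0.32, adjusted p = 0.86), and Col6a6 was above background on 2 arrays and was not tested.

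Of the 7 tested fibril-associated chains 4 were higher in stroma and 1 in tumor, against 26% and 36.8% of all genes. The class median was 2.42, against -0.13 over all genes. The sizes for Col14a1, Col19a1 and Col22a1 are set partly by the detection limit, since 12, 15 and 11 of 16 tumor arrays did not measure them above background. These chains passed the filter mainly through stroma, so the class count and median are not independent of it. Col14a1, a fibril coat protein of tendon and dermis, ran from -4.43 to -0.13 (median -1.71) in wild-type stroma and from -2.53 to -0.26 (median -1.04) in knockout stroma. In tumor it ran from -7.51 to -0.98 (median -5.98) in wild-type and from -7.27 to -1.96 (median -5.86) in knockout hosts. It was above background on 15 of 16 stroma arrays and on 4 of 16 tumor arrays. Col14a1 was 13.4-fold higher in stroma (3.74 ± 0.51, adjusted p = 7.6e-07), on 6 of 6 slides.

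Col22a1, a chain of the junction between muscle and tendon, was 19.8-fold higher in stroma (4.31 ± 0.65, adjusted p = 2.9e-06) and was above background on 15 stroma and 5 tumor arrays. A second probe for Col22a1 differed by only 0.29. Col19a1, known from muscle and nerve, differed by 4.21 ± 0.50 (adjusted p = 1.5e-07). It was above background on 5 of 8 wild-type stroma, 8 of 8 knockout stroma, 1 of 8 wild-type tumor and 0 of 8 knockout tumor arrays. In knockout hosts its stroma mean was 19.2-fold the detection level in tumor. A second probe for Col19a1, above background on 8 of 32 arrays, differed by 1.87. Col20a1 was 5.36-fold higher in stroma (2.42 ± 0.38, adjusted p = 4.2e-06).

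Col16a1 was the fibril-associated chain that was higher in tumor, by 3.1-fold (-1.63 ± 0.35, adjusted p = 2.4e-04). It ran from 0.10 to 5.53 (median 3.82) in wild-type stroma and from 1.37 to 3.999 (median 2.52) in knockout stroma. Its tumor levels lay between 3.49 and 5.35, and 11 of 16 stroma arrays were below the lowest of them. With any 1 array left out, the difference for Col16a1 ran from -1.79 to -1.34. Col12a1, a coat protein of fibrils under tension, was at -0.01 ± 0.47 (adjusted p = 0.99), with a median of -0.54 over stroma and -0.72 over tumor, and its sign differed between alternatives. Col9a2 was at 0.12 ± 0.32 (adjusted p = 0.75). Col9a1 and Col9a3, its partners in type IX, were above background on 3 and 7 of 32 arrays and were not tested.

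The 2 multiplexins, basement membrane collagens that carry sugar chains and release endostatin-like fragments, were opposed. Col15a1 had medians of -3.84 in wild-type stroma, -2.09 in knockout stroma, -5.21 in wild-type tumor and -4.99 in knockout tumor. It was 4.62-fold higher in stroma (2.21 ± 0.45, adjusted p = 1.2e-04), and in knockout hosts the ranges did not overlap. Col18a1 ran from 0.62 to 4.86 (median 3.59) in wild-type stroma, from 1.55 to 3.64 (median 2.54) in knockout stroma, from 4.07 to 5.83 (median 5.04) in wild-type tumor and from 3.02 to 5.25 (median 4.45) in knockout tumor. It was 3.11-fold higher in tumor (-1.64 ± 0.31, adjusted p = 5.4e-05). With any 1 array left out, the difference for Col18a1 ran from -1.75 to -1.39. Col15a1 was higher in stroma on 6 of 6 slides, and Col18a1 was higher in tumor on 5 of 6.

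The chains of type VIII, a short-chain network of vessel walls, also parted. Col8a2 was 5.18-fold higher in stroma (2.37 ± 0.69, adjusted p = 0.0040) and Col8a1 was 2.01-fold higher in tumor (-1.01 ± 0.39, adjusted p = 0.028). Within slides Col8a2 was higher in stroma on 4 of 6, and Col8a1 was higher in tumor on 5 of 6. Col8a1 lay between 4.34 and 5.68 in all 16 tumor arrays but ran from 1.05 to 6.87 in wild-type stroma, so that 3 stroma arrays exceeded every tumor array and 10 lay below every one. Col10a1, the chain of hypertrophic cartilage, was above background on 1 array and was not tested.

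Among the transmembrane chains Col23a1 was higher in stroma (1.34 ± 0.50, adjusted p = 0.022), a call lost under another background correction (0.54, adjusted p = 0.115). Col13a1 (-0.85 ± 0.26, adjusted p = 0.0067) and Col17a1, the hemidesmosome collagen of epidermis (-0.51 ± 0.19, adjusted p = 0.020), were higher in tumor. Within slides Col23a1 was higher in stroma on 4 of 6, and Col13a1 and Col17a1 were higher in tumor on 5 and 4 of 6. A second probe for Col17a1, above background on 20 of 32 arrays, differed by only -0.14. Col25a1 was above background on 3 arrays and was not tested. Of the remaining chains Col26a1 (2.17 ± 0.41, adjusted p = 5.0e-05) and Col28a1, known from peripheral nerve (1.64 ± 0.36, adjusted p = 2.5e-04), were higher in stroma, but they were above background on only 11 and 9 of 32 arrays. A second probe for Col26a1 differed by -0.33 and was above background on 4 of 32 arrays. In knockout hosts the stroma means of Col26a1 and Col28a1 were 1.88-fold and 1.11-fold the detection level in tumor. Col7a1, the anchoring fibril of skin, did not differ detectably (-0.14 ± 0.22, adjusted p = 0.61).

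Genes that act on collagen were followed in 5 lists. In the endoplasmic reticulum list (prolyl and lysyl hydroxylases, glycosyltransferases and chaperones of the helix) 2 of 19 genes were higher in stroma and 13 were higher in tumor, with a median of -1.12. P4ha1, a prolyl hydroxylase subunit needed for a stable helix, had medians of 0.69 and 0.23 in wild-type and knockout stroma and 1.58 and 1.59 in the tumors, a difference of -1.12 ± 0.13 (adjusted p = 1.0e-07). Colgalt1, which adds galactose to collagen, differed by -1.14 ± 0.12 (adjusted p = 4.1e-08) and P3h1, a prolyl 3-hydroxylase, by -1.22 ± 0.15 (adjusted p = 1.8e-07). Colgalt2, the second galactosyltransferase, went the other way by 2.62 ± 0.31 (adjusted p = 1.5e-07).

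Of the 11 tested genes that trim or crosslink procollagen, 4 were higher in stroma and 3 in tumor. Adamts2, which removes the amino-terminal propeptide of types I and III, was higher in stroma by 2.95 ± 0.39 (adjusted p = 5.5e-07), as were the crosslinking enzyme Loxl1 (2.73 ± 0.38, adjusted p = 9.0e-07) and the tolloid-like protease Tll1 (1.80 ± 0.29, adjusted p = 6.4e-06). Adamts14, a relative of Adamts2 with the same substrate, was higher in tumor (-2.76 ± 0.44, adjusted p = 6.5e-06), where it ran from 3.97 to 4.89 against -2.86 to 4.42 in wild-type and -0.23 to 1.95 in knockout stroma.

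Of 8 small leucine-rich proteoglycans, which bind fibrils and control their growth, 6 were higher in stroma and none in tumor, with a median of 1.82. The largest differences were those of Prelp (5.17 ± 0.57, adjusted p = 8.3e-08) and Fmod (4.77 ± 0.72, adjusted p = 2.8e-06), followed by Bgn (2.04 ± 0.35, adjusted p = 1.8e-05) and Ogn (1.61 ± 0.34, adjusted p = 1.9e-04). Of 9 collagen receptors 2 were higher in stroma and 2 in tumor. Itga11, the integrin chain of fibroblasts that binds fibrillar collagen, differed by 5.36 ± 0.68 (adjusted p = 3.3e-07) and Itga1 by 1.14 ± 0.19 (adjusted p = 1.2e-05). Itga10 (-1.27 ± 0.23, adjusted p = 3.9e-05) and Ddr2, a receptor kinase for fibrillar collagen (-0.63 ± 0.16, adjusted p = 0.0018), were higher in tumor.

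Of 6 collagen-cleaving proteases none was higher in stroma and 3 were higher in tumor. These were the gelatinase Mmp9 (-2.45 ± 0.51, adjusted p = 1.5e-04), the osteoclast cathepsin Ctsk (-1.50 ± 0.43, adjusted p = 0.0035) and the membrane-bound Mmp14 (-1.02 ± 0.36, adjusted p = 0.017). These lists are described by counts, to be read beside the 26% and 36.8% of all genes that passed in each direction.

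Markers of cell types also differed between the tissues. In stroma all 8 skeletal muscle markers were higher (median log2 difference 6.22), as were 8 of 8 endothelial (1.41), 6 of 6 smooth muscle and pericyte (3.22), 5 of 6 adipocyte (5.81), 5 of 6 Schwann cell (2.58), 5 of 6 macrophage (1.75) and 8 of 9 fibroblast markers (1.12). The remaining fibroblast marker was higher in tumor (-1.19). All 6 proliferation markers were higher in tumor (-2.51). Of 3 tested cartilage and bone markers 1 was higher in stroma and 1 in tumor, and of 2 tested keratinocyte markers 1 was higher in stroma. These counts are to be read beside the 26% and 36.8% of all genes that passed in each direction. The mean level of the 8 skeletal muscle markers ran from 1.74 to 8.98 in wild-type stroma, from 6.93 to 8.55 in knockout stroma, from -3.47 to 5.13 in wild-type tumor and from -4.26 to 6.13 in knockout tumor. The mean of the 9 fibroblast markers ran from 1.07 to 4.13 and from 2.88 to 3.76 in wild-type and knockout stroma, and from 0.36 to 2.19 and from 0.41 to 2.15 in the tumors. No muscle or fibroblast marker was below background on every array of a group, and their part in the collagen differences was not tested.

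Within hosts of 1 genotype the same tissue comparison was made on 8 against 8 arrays. In wild-type hosts 12 chains were higher in stroma and 6 in tumor (11.8% and 19.8% of all genes passed in these directions), and in knockout hosts 14 and 11 (27.4% and 32.3%). Chains that passed in both genotypes included Col1a1 (2.13 ± 0.81, adjusted p = 0.047 in wild type and 2.03 ± 0.81, adjusted p = 0.034 in knockout), Col1a2, Col4a1, Col14a1 and, in the other direction, Col4a6, Col6a1 and Col18a1. Several calls made over both genotypes passed in 1 genotype alone. In wild-type hosts Col6a2 (-1.09, adjusted p = 0.10), Col6a3 (-0.89, adjusted p = 0.12), Col5a3 (-0.87, adjusted p = 0.082), Col16a1 (-1.19, adjusted p = 0.066), Col8a1 (-0.22, adjusted p = 0.79), Col15a1 (1.15, adjusted p = 0.16) and Col6a5 (0.95, adjusted p = 0.12) did not pass, nor did Col4a4, Col13a1 and Col28a1. Conversely Col8a2 (1.54, adjusted p = 0.18), Col11a1 (1.16, adjusted p = 0.32) and Col17a1 (adjusted p = 0.90) passed in wild-type but not in knockout hosts, and Col23a1 and Col27a1 passed in neither alone. The difference between genotypes in these values is the test of genotype by tissue, given further on, in which no chain passed with all arrays. Without wild-type stroma 65 and 82 the wild-type counts were 11 and 11 (18.6% and 29.8% of all genes), and with the slide as a term in the fit they were 10 and 10 (13.4% and 21.6%). In that fit Col1a1 no longer passed (1.88 ± 0.93, adjusted p = 0.099), and Col3a1 did, as higher in tumor (-1.43 ± 0.51, adjusted p = 0.023).

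Between knockout and wild-type stroma no chain passed. Of 37 tested chains, 7 had an unadjusted p under 0.05. Over all 24772 genes tested, 0% passed the adjusted threshold in either direction and 28.5% had an unadjusted p under 0.05. The median log2 difference, knockout minus wild type, was -0.13 over the chains and 0.09 over all genes. The smallest p values among chains higher in the knockout were those of Col6a5 (2.43 ± 0.49, adjusted p = 0.12), Col19a1 (3.16 ± 0.87, adjusted p = 0.12) and Col15a1 (1.54 ± 0.58, adjusted p = 0.13). Among chains lower in the knockout they were those of Col4a6 (-1.61 ± 0.43, adjusted p = 0.12), Col24a1 (-1.05 ± 0.39, adjusted p = 0.13) and Col8a1 (-1.61 ± 0.74, adjusted p = 0.17). Within the 5 slides that held both genotypes Col6a5 was higher in knockout on 5 and Col4a6 lower on 5. The type I chain Col1a1 (0.68 ± 0.81, adjusted p = 0.57) and Col3a1 (0.58 ± 0.64, adjusted p = 0.54) did not differ beyond their errors.

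This outcome changed when single wild-type arrays were left out. Without wild-type stroma 9, the array with the lowest fibrillar and type VI levels, 3 chains were higher and 10 lower in knockout stroma, against 15.9% and 18.4% of all genes. The lower ones were Col6a1 (-1.41 ± 0.27, adjusted p = 0.0063), Col6a2 (-1.47 ± 0.33, adjusted p = 0.0075), Col6a3 (-1.45 ± 0.30, adjusted p = 0.0066), Col4a5, Col4a6, Col5a3, Col8a1, Col16a1, Col18a1 and Col24a1. The higher ones were Col6a5 (2.26 ± 0.50, adjusted p = 0.0073), Col19a1 (3.66 ± 0.79, adjusted p = 0.0071) and Col20a1 (2.03 ± 0.55, adjusted p = 0.015). Without that array Col1a1 (0.020 ± 0.58, adjusted p = 0.98) and Col3a1 (-0.071 ± 0.27, adjusted p = 0.85) did not pass either. As it held the lowest type VI levels of its group, leaving it out raises the wild-type means of those chains and narrows their spread. The calls for Col6a1, Col6a2 and Col6a3 are therefore not independent of the choice of array.

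Without wild-type stroma 4, 4 of 36 tested chains were higher (Col6a5, Col19a1, Col15a1 and Col4a2) and 1 lower (Col4a6), and 8.55% and 11.8% of all genes passed. Without all arrays that went against their sex label 2 were higher and 9 lower (9.82% and 13.9% of all genes). Without wild-type stroma 65 and 82 no chain passed in either direction, and neither did any gene (0%). With arrays weighted by their fit 11 chains were higher and 14 lower (39.2% and 32.4% of all genes), and with all 32 arrays in 1 fit 3 and 2 (4.37% and 11.8%). Each count of chains is to be read beside the share of all genes in the same fit.

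**Figure D4:**
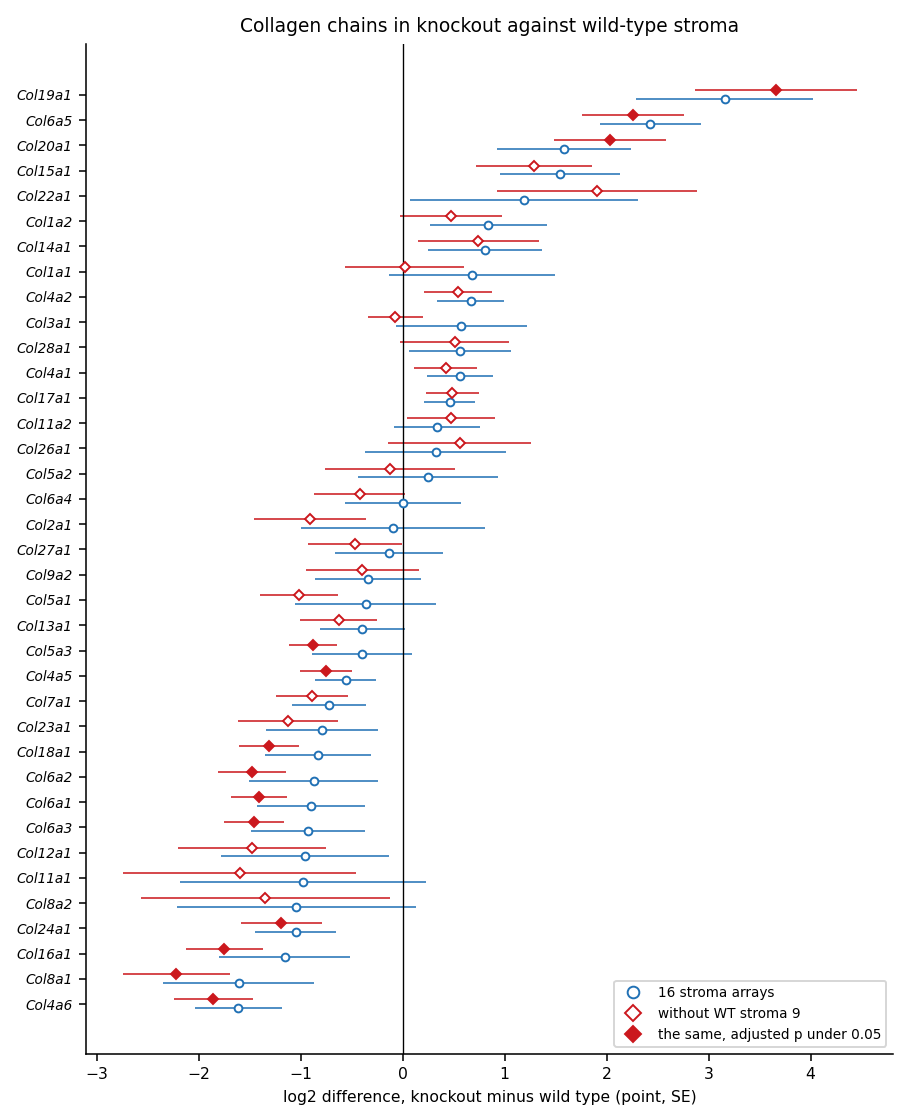
Log2 difference between knockout and wild-type stroma (x axis, point and SE) for the 37 tested chains with all 16 stroma arrays (circles) and without wild-type stroma 9 (diamonds, filled where the adjusted p was under 0.05). No circle is filled, and 13 diamonds are, among them Col6a1, Col6a2 and Col6a3 on the left and Col6a5 and Col19a1 on the right. The array left out held the lowest mean type VI level of its group.

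No marker of any of the 10 lists passed between knockout and wild-type stroma. Knockout stroma had higher medians over arrays of the list means for adipocyte (1.98 against 0.45), Schwann cell (0.078 against -1.16), fibroblast (3.19 against 2.04), macrophage (3.51 against 2.57), smooth muscle and pericyte (3.17 against 2.35), endothelial (0.69 against -0.014) and skeletal muscle markers (7.83 against 7.42). The median was lower for the proliferation list (-0.51 against 1.90). The wild-type medians include wild-type stroma 65 and 82, which fell among the tumors, and how far the differences rest on them was not tested. Their adipocyte levels were -0.48 and -3.81, both below the group's median of 0.45. Wild-type stroma 82 held the group's lowest fibroblast, smooth muscle and pericyte, endothelial, Schwann cell and skeletal muscle levels and its highest proliferation level. The lowest adipocyte and macrophage levels were those of wild-type stroma 5 and 9. Wild-type stroma 9 had the highest skeletal muscle level (8.98) and the lowest proliferation level (-5.25) of its group, and its fibroblast level (2.08) was near the group's median. The part of these markers in the collagen differences was not tested.

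None of the genes of the 5 collagen-related lists passed between the stroma groups. The smallest p in each list was that of P3h4 (-1.45 ± 0.42, adjusted p = 0.12), of the propeptidase enhancer Pcolce2 (-1.45 ± 0.44, adjusted p = 0.12), of lumican, Lum (0.87 ± 0.45, adjusted p = 0.21), of the integrin chain Itgb1 (0.45 ± 0.17, adjusted p = 0.13) and of the collagenase Mmp13 (-3.13 ± 1.26, adjusted p = 0.14). Between the tumor groups none of them passed either, with Fmod at 2.16 ± 0.93 and Mmp8 at -1.32 ± 0.52 (both adjusted p = 0.98).

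Between knockout and wild-type tumor no chain passed either. None of 31 tested chains had an unadjusted p under 0.05, 0% of 23730 genes passed in either direction and 3.53% had an unadjusted p under 0.05. The differences of the chains ran from -0.73 to 0.99, with a median of -0.06. Col1a1 differed by 0.79 ± 0.76, Col3a1 by -0.14 ± 0.13, Col4a1 by 0.24 ± 0.28 and Col6a3 by 0.05 ± 0.24 (adjusted p = 0.98, 0.98, 0.98 and 0.99). Col18a1 had the smallest p (-0.61 ± 0.30, unadjusted p of 0.060 from limma, adjusted p = 0.98). The errors of the type I chains were several times larger than those of Col3a1, as their spread between tumors was.

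The genotype difference in stroma less that in tumor was tested for 38 chains, and none passed (0% of 27096 genes in either direction). Of the chains, 9 had an unadjusted p under 0.05, against 21% of all genes. The smallest p values were those of Col6a5 and Col19a1 (both adjusted p = 0.13). These 2 chains were above background on 2 and 1 of 16 tumor arrays, so their values rest partly on signals not above background and no size is given. Without wild-type stroma 9, 3 chains passed as more positive in stroma and 8 as more negative (8.51% and 11.6% of all genes). The more negative ones included Col6a3 (-1.50 ± 0.39, adjusted p = 0.011) and Col6a1 (-1.29 ± 0.37, adjusted p = 0.017). These 2 calls are again not independent of leaving out the array with the lowest type VI levels. The more positive ones were Col20a1 (2.34 ± 0.64, adjusted p = 0.014) and again Col6a5 and Col19a1, whose values rest partly on signals not above background. Without wild-type stroma 4, 3 passed as more positive and none as more negative (2.42% and 5.91%). Without the arrays that went against their sex label the counts were 1 and 1 (2.57% and 5.81%), and with weighted arrays 8 and 9 (27.2% and 25.3%).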

How the data were processed

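Per the labels' protocols a kit for fibrous tissue was used to extract RNA, whose integrity numbers were above 7, before labelling with Cy3. The submitters' processing notes name Agilent Feature Extraction 10.7.3.1 as the scanner software. The deposited array files hold the processed signal as intensity on a linear scale, and flags of whether a spot was well above background, per the file headers. The authors also deposited a value table on a log2 scale, centred per probe within a tissue as far as the values show, which served as an alternative only. Once a constant per array was removed, 99.5% (stroma) and 98.7% (tumor) of its values differed by at most 0.01 from values centred here. Its column medians ran from -0.31 to 0.56.

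From 59305 spots that were not controls, outlier spots were dropped and spots of a probe averaged. Each log2 intensity was taken relative to the array's 75th percentile. Of 56605 probes 32994 matched RefSeq names (GRCm38.p6, while the array headers name another build, so only names were used). Testing used limma 3.58.1 (lmFit and eBayes) in R 4.3.3 and took genes with 8 or more arrays well above background in the fit and 2 or fewer missing values, which stayed missing. All 32 arrays, with 1 mean per tissue, genotype and sex, gave the tissue and interaction contrasts, and 16 arrays with 1 mean per genotype and sex gave each genotype contrast. The threshold was a Benjamini-Hochberg adjusted p of 0.05 over all genes tested. Correlations used 100000 permutations, two-sided. The fits were tested on simulated data.

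Chains named with full statistics were fixed major chains, the 6 largest passing differences in each direction among the other chains bright on at least 12 arrays of the brighter tissue, the 3 smallest p in each direction for the genotype contrasts, and up to 4 genes a list. Other chains are named so that each member is accounted for. Members, lists and tests were chosen with earlier results of these data known. Alternatives were normexp correction (offset 50, on the median signal) with quantile scaling, quantile scaling, the percentile of bright probes, the series matrix, dropping the filter, asking for all arrays to pass it, averaging a gene's probes, a trended robust variance, weights per array, the slide as a term or as a random block, leaving out sex, all arrays in 1 fit, replicate number as a block, and leaving out arrays. Python 3.11.15, numpy 2.4.6, scipy 1.17.1, pandas 2.3.3 and matplotlib 3.10.9 were used for correlations and figures.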

Additional observations from a re-analysis of the deposited data

Results flagged for a closer look

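Of 116 groups of 8 arrays, from 29 collagen chains, 11 held an array whose distance from the nearest other exceeded the limit of Dixon's test. Chance gives about 1 in 20 groups, and chains on 1 array are not independent. In wild-type stroma 9 Col3a1 (1.66), Col18a1 (0.62) and Col16a1 (0.10) were far below the rest of the group. In wild-type stroma 4 Col15a1 (0.0073), Col11a1 (3.81) and Col9a2 (-0.33) were far above it. Among wild-type tumors Col12a1 was high in tumor 9 (1.74), Col22a1 (-4.41) and Col9a2 (-2.43) were high in tumor 5, and Col23a1 was high in tumor 65 (0.32). Among knockout tumors Col24a1 was low in tumor 81 (-4.03).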

How the results depend on the processing

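Over 137 single-gene results, 1765 of 1881 fits under another processing kept their direction and their side of the threshold, 35 lost and 53 gained a call and 28 reversed. Leaving out 1 array did so in 3779, 54, 41 and 38 of 3912 fits. With a filter on all arrays 4 chains were higher in stroma over both genotypes, 4 higher and 3 lower in wild-type hosts and 4 higher in knockout hosts. Only 16 of the 44 chains were above background on all 32 arrays. The others, among them those seen mainly in stroma, are then not tested. The share of all genes under this filter is not given, so these counts cannot be compared with the main ones. In wild-type hosts 10 chains were lower with the slide as a term and 11 without wild-type stroma 65 and 82. Between the stroma groups array weights gave 11 higher and 14 lower, 1 fit of all arrays 3 and 2, and leaving out the arrays against their sex label 2 and 9. For genotype by tissue the counts were 8 and 9 with weights and 1 and 1 without those arrays. In the folding list 1 gene was higher with no filter, with the strict filter and without those arrays, 3 proteoglycans were higher with the strict filter, and 4 receptors with the percentile of bright probes or with weights. The cause of these shifts, other than the filter, was not tested. With 1 array left out, the chains higher and lower numbered 17 to 18 and 11 to 13 over both genotypes, 9 to 13 and 5 to 10 in wild-type hosts and 12 to 15 and 11 to 13 in knockout hosts. They numbered 0 to 4 and 0 to 10 between stroma groups, 0 and 0 between tumor groups, and 0 to 3 and 0 to 8 for genotype by tissue. The folding list gave 1 to 2 higher and 12 to 14 lower, and 2 to 3 receptors were higher.

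None of the reversed values below was called in its main fit. Between stroma and tumor Col12a1 became 0.055 with normexp, 0.11 with bright probes, 0.27 with the mean of probes, 0.70 with weights and 0.25 with the slide, -0.022 with the slide in wild-type hosts, and 0.018, 0.37 and 0.51 with the mean of probes, weights and the slide in knockout hosts. Col3a1 became 0.30 with the slide in knockout hosts. In wild-type hosts Col5a1 became 0.41 with weights and 0.44 without the arrays against their sex label, and Col8a1 0.21 and 0.39. Mmp2 became 0.017 with the slide and 0.036 without those arrays. Without those arrays Col1a1 (-0.093) and Col3a1 (-0.11) between stroma groups, Col4a1 for genotype by tissue (-0.035) and Col6a3 between tumor groups (-0.18) also reversed. Col6a3 there was -0.13 with the mean of probes and -0.020 with the slide. Col1a1 for genotype by tissue became 0.0019 with bright probes, 1.01 with the slide and 0.15 without wild-type stroma 65 and 82. Between tumor groups Col3a1 became 0.035 and P4ha2 0.043 with weights, and Itga1 -0.20 with the mean of probes. With 1 array left out the values that changed sign ran from -0.23 to 0.25 for Col12a1 over both genotypes and from -0.12 to 0.84 in wild-type hosts, from -0.57 to 0.44 for Col5a1 and from -0.58 to 0.39 for Col8a1 in wild-type hosts, from -0.77 to 0.38 for Col1a1 by tissue, from -0.071 to 0.88 for Col3a1 in stroma, from -0.077 to 0.18 for Col6a3 in tumor and from -0.27 to 0.032 for Mmp2.

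With the replicate number as a block, 18 chains were higher and 12 lower over both genotypes, 12 and 7 in wild-type and 14 and 11 in knockout hosts, and 0 and 0 for genotype by tissue. The shares of all genes in this fit are not given. Of 15 pairs of equal number 8 correlated above 0.1 (from -0.12 to 0.36), and 4 stroma arrays correlated best with their own number. Numbers 95 and 99 went against their sex label in both tissues, and number 9 in stroma alone. These values do not settle whether equal numbers mark 1 host. The labels do not say so, and the samples were therefore not treated as paired in the main fits. Within a tissue the genotypes share no number and no block could be used. Scaling on bright probes moved the median of all genes in knockout hosts from -0.03 to 0.14. Chains that few arrays measured above background, such as Col4a4, Col6a5, Col26a1 and Col28a1, are limited by their signal.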
